A study of Homo sapiens with 2 samples.

Results

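The integrated stress response genes described here are read by 8 probes of an Illumina HumanHT-12 bead array, 1 for each gene. They are ATF3 (ILMN_2374865), DDIT3 (ILMN_1676984), TRIB3 (ILMN_1787815), DDIT4 (ILMN_1661599), SESN2 (ILMN_1751598), ASNS (ILMN_1796417), PSAT1 (ILMN_1692938) and PCK2 (ILMN_1671791). The probes were chosen by identifier, out of 47318 probes that gave a signal, and the platform annotation named all 8 genes as listed. The cells were TIVE-LTC, a human umbilical vein endothelial line immortalized with telomerase kept with the Kaposi's sarcoma herpesvirus (KSHV) over many passages as a lasting infection. One sample received 60 µM ABC294640, an inhibitor of sphingosine kinase 2, and the other received vehicle, both for 24 h, and both were infected. With 1 array a group, no value has a replicate error, no difference was tested, and 1 line stands for the infected cell type in both groups.

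In the integrated stress response, kinases that sense endoplasmic reticulum (ER) stress, amino acid shortage, haem shortage or double-stranded RNA phosphorylate the initiation factor eIF2alpha. General translation then slows while the mRNA of the transcription factor ATF4 is translated better. ATF4, with partners such as CHOP (the product of DDIT3), is known to switch on genes of amino acid supply, of mTORC1 inhibition, of autophagy and, under lasting stress, of cell death.

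The upstream sequences of the member genes at either end of the range of ratios, and of the member with the best known ATF4 element, are shown because the ATF4 response is defined by such elements. Each is the 250 bases before a RefSeq transcription start, 5′ to 3′ on the coding strand, in build GRCh38.p14. Capitals mark TGATGNAA, the core of the C/EBP-ATF composite element that ATF4 binds, searched on both strands.
ATF3 (chr1:212565157-212565406, plus strand): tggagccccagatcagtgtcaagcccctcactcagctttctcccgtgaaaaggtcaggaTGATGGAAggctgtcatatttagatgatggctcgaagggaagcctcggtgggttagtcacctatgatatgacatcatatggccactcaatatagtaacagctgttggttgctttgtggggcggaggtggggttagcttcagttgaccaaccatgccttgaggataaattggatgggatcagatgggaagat
ASNS (chr7:97872409-97872658, minus strand): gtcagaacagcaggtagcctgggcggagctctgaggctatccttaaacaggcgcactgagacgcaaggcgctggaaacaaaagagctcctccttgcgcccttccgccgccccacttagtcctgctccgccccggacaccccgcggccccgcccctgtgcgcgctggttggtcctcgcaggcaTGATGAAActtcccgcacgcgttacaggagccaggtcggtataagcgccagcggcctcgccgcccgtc
PSAT1 (chr9:78296875-78297124, plus strand): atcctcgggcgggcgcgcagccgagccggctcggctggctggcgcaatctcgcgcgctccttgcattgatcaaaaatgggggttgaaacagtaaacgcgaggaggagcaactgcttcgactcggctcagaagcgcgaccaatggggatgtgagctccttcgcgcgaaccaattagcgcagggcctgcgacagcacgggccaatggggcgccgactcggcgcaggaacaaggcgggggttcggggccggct

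The match in ATF3 begins 191 bases before the start and the match in ASNS begins 68 bases before it, while no match lies in the PSAT1 window. The ATF3 sequence shown belongs to the more upstream of its 2 starts. The sequence before the other start (chr1:212614768-212615017) held no match. All 8 member genes had entries, with 13 windows of 300 bases (250 before to 50 after a start). Only ATF3 and ASNS held a match, each in 1 of its 2 windows. Of all 35116 such windows in the RefSeq table, 3.62% held TGATGNAA. TGACGTCA, the cyclic AMP response element, was found in 1.85% of all windows and the ER stress element (CCAAT and CCACG with 9 bases between them, on either strand) in 0.0769%, and neither was in a window of the 8 genes. A match describes letters only, and its absence from a window says nothing of the factor.

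The 8 genes did not share a direction. After background correction and quantile normalization, ATF3 and TRIB3 were at least 2-fold higher with ABC294640, PSAT1 was at least 2-fold lower, and the other 5 lay within 2-fold. Thus 2 of the 8 probes were at least 2-fold higher, against 7.38% of all 18233 detected probes (detection p-value under 0.01 on either array). A single member was at least 2-fold lower, against 6.96% of detected probes. All 8 were detected on both arrays, with a detection p-value of 0 in every case, so each ratio is between 2 detected signals. In such bulk RNA, fewer cells that express a gene and less of its RNA per cell cannot be told apart.

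**Figure D1:**
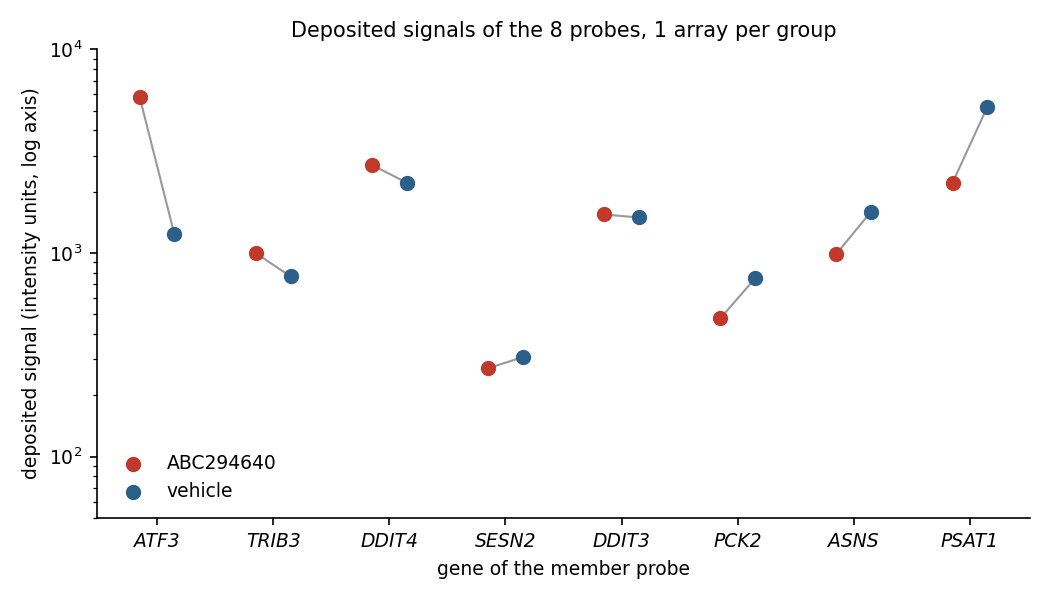
Deposited signal in intensity units (log axis) of each of the 8 probes, with the ABC294640 array left and the vehicle array right of each pair. The signals of ATF3 (5845 with ABC294640, 1232 with vehicle) and PSAT1 (2208 with ABC294640, 5209 with vehicle) differ most, and levels of different probes cannot be set against each other.

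Among the transcription factors, ATF3, a stress-induced member of the ATF/CREB family and a target of ATF4, had a deposited signal of 5845 intensity units with ABC294640 and 1232 with vehicle. Its log2 ratio after normalization was 2.60, or 6.08-fold higher with ABC294640, and 0.631% of detected probes had a ratio at least as large. A second ATF3 probe gave 113.7 units with ABC294640 and 51.7 with vehicle, where it was not detected, so its fold is a lower bound of at least 2.65-fold higher. The remaining ATF3 probe was detected on neither array. Both ATF3 probes that could be read were thus higher with ABC294640.

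DDIT3, which encodes CHOP, the factor associated with death under lasting ER stress, had 1544 units with ABC294640 and 1493 with vehicle. These deposited signals are nearly equal. The log2 ratio of 0.56 (1.47-fold higher with ABC294640) arose from the scaling, as it was 0.05 without normalization between the arrays. The 75th percentile of all probes was 115.2 units with ABC294640 and 167.5 with vehicle. At the 99th percentile the arrays were nearly level, with 6402 units with ABC294640 and 6481 with vehicle. The DDIT3 signals lie between these percentiles. Quantile normalization removes such gaps at every rank. Of all detected probes, 18.2% had a ratio at least as large as that of DDIT3.

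TRIB3, a pseudokinase induced by ATF4 and CHOP that in turn restrains both, had 997.4 units with ABC294640 and 766.9 with vehicle. Its log2 ratio was 1.06, or 2.08-fold higher with ABC294640, which is just past the 2-fold threshold. It fell short of 2-fold in the deposited series matrix values, with a log2 ratio of 0.95, and without normalization between the arrays, with 0.40.

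The 2 members that restrain the growth kinase mTORC1 were each higher by less than 2-fold. DDIT4 (REDD1), which acts through the TSC complex, had 2704 units with ABC294640 and 2212 with vehicle, a log2 ratio of 0.63 after normalization (1.55-fold higher). SESN2, a leucine sensor that acts through GATOR2, had 271.2 units with ABC294640 and 307.7 with vehicle, and a normalized log2 ratio of 0.60 (1.52-fold higher). The SESN2 signal as deposited was thus lower with ABC294640, and its ratio turned to -0.20 without normalization between the arrays.

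The 3 metabolic members were level or lower. ASNS, the asparagine synthetase that is a standard readout of ATF4, had 990.3 units with ABC294640 and 1596 with vehicle, and a normalized log2 ratio of -0.14. Its second probe had 643.8 units with ABC294640 and 1047 with vehicle, a log2 ratio of -0.08, so the probes differed little. PCK2, the mitochondrial phosphoenolpyruvate carboxykinase, had 476.5 units with ABC294640 and 750.3 with vehicle, and a log2 ratio of 0.04. Of its other probes 1 gave -0.02, and a dim one with 76.2 units with ABC294640 and 137.4 with vehicle gave -0.79, so the PCK2 probes disagree.

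PSAT1, the aminotransferase of serine synthesis, had 2208 units with ABC294640 and 5209 with vehicle. The log2 ratio of -1.05 is a 2.08-fold lower signal with ABC294640, and 5.92% of detected probes had a ratio as low or lower. Its other probe was detected on neither array. The ratio of PSAT1 was -0.44 under median scaling and -0.89 under cyclic loess, which leaves it within 2-fold in both.

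**Figure D2:**
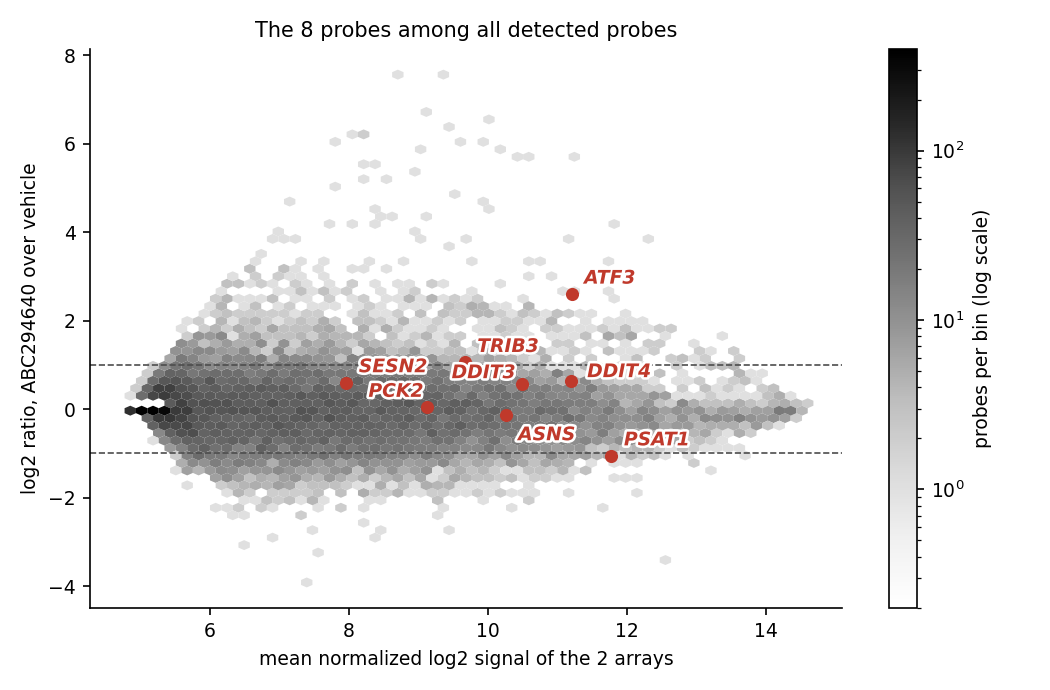
Log2 ratio of ABC294640 over vehicle against the mean normalized log2 signal of both arrays for 18233 detected probes (grey bins, darker for more probes on a log scale; probes detected on 1 array only stand at their bound) with the 8 probes in red and dashed lines at 2-fold. ATF3 at 2.60 stands clear of the bulk of probes, TRIB3 at 1.06 and PSAT1 at -1.05 lie at the dashed lines, and the other 5 lie inside them.

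How the arrays were scaled moved the 8 ratios by unequal amounts. Median scaling gave ATF3 3.09, against 2.60 as reported, while SESN2 had 0.61, against 0.60. The median log2 ratio of all detected probes was -0.07 as reported, 0.16 under median scaling and -0.65 without normalization between the arrays. Relative to that median, ATF3 stayed between 2.56 and 2.94, TRIB3 between 1.00 and 1.12, DDIT4 between 0.67 and 0.95, DDIT3 between 0.57 and 0.70 and SESN2 between 0.46 and 0.66 over 7 settings. ASNS (-0.10 to -0.06) and PCK2 (-0.04 to 0.11) stayed near the median, and PSAT1 stayed below it (-0.99 to -0.60). Median scaling and no normalization differ only by a constant, so their values relative to the median are the same by construction. Several other settings share the quantile normalization, so the settings are not independent. Within these limits the order of ATF3 and TRIB3 above the median and PSAT1 below it held, while the number past 2-fold changed.

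**Figure D3:**
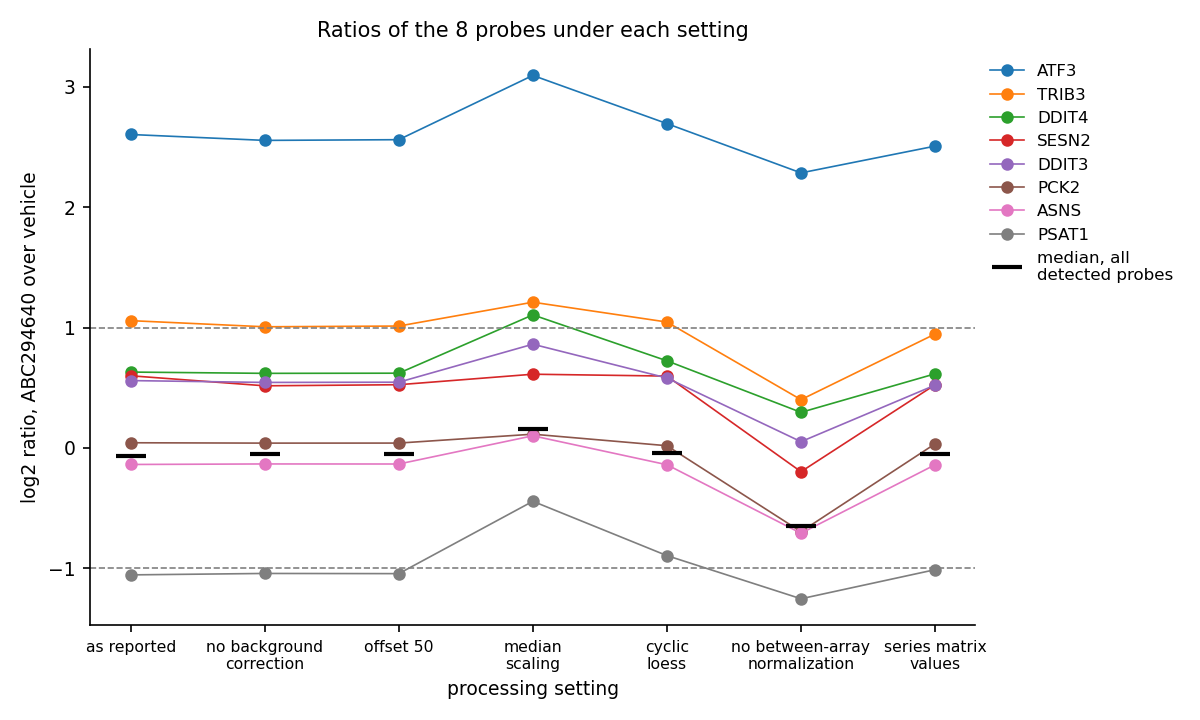
Log2 ratio of ABC294640 over vehicle of each of the 8 probes under the reported processing and 6 alternatives, with black bars for the median of all detected probes and dashed lines at 2-fold. ATF3 lies between 2.28 and 3.09 in all settings, and most other points shift with the black bars.

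The wider pathway was read from lists of 116 genes in 10 groups, with 1 probe a gene, the brightest. Of these, 108 genes were detected on either array. With ABC294640, 11 genes were higher by 2-fold or more and 7 were lower by as much. Over all 10883 genes with a detected probe, 6.99% were at least 2-fold higher and 8.36% at least 2-fold lower, and the median log2 ratio was -0.10. The split of the listed genes followed the scaling, with 22 higher and 3 lower under median scaling and 3 higher and 21 lower without normalization between the arrays, where the median of all genes was 0.11 and -0.70 in turn. Of 45 listed genes named by a set rule with a log2 ratio over 0, 21 were below 0 without normalization. The highest of these 21 was at 0.76 as reported. Of 34 named by that rule with a ratio under 0, 12 were above 0 under median scaling. Small ratios are thus best read against the median of all genes. Relative to it, median scaling and no normalization give the same list medians by construction. The lists include the 8 genes themselves, and they were drawn up with earlier results of these data known.

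In the list of eIF2alpha, its kinases and phosphatase subunits, their regulators and the exchange factor, 3 of 14 detected genes were at least 2-fold higher and 0 lower. Over all genes, 6.99% were higher and 8.36% lower by as much. Without normalization between the arrays, 1 gene of this list was higher and 3 were lower. PPP1R15A (GADD34), the stress-induced phosphatase subunit that ends the response, had 10231 units with ABC294640 and 4402 with vehicle, a log2 ratio of 1.23 that stayed past 2-fold in all 7 settings. EIF2AK4 (GCN2), the kinase that senses uncharged tRNA, had 779.7 units with ABC294640 and 503.5 with vehicle, a log2 ratio of 1.39 that was past 2-fold in 6 of 7 settings. DNAJC3, a co-chaperone that inhibits eIF2alpha kinases, had a log2 ratio of 1.19 from signals near background, 134.9 units with ABC294640 and 107.5 with vehicle, and was past 2-fold in only 3 of 7 settings.

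The other kinases had ratios below 0. EIF2AK3 (PERK), the kinase of ER stress, had 212.9 units with ABC294640 and 497.1 with vehicle, a log2 ratio of -0.59. EIF2AK2 (PKR), which senses double-stranded RNA, had a log2 ratio of -0.42. EIF2AK1 (HRI), which senses haem, had -0.54, but this turned to 0.16 under median scaling and its second, dim probe gave 0.45. The substrate subunit EIF2S1, the constitutive phosphatase subunit PPP1R15B and the exchange factor subunits EIF2B1 to EIF2B5 all lay within 2-fold, between -0.42 for EIF2B1 and 0.44 for EIF2B3. IMPACT, an inhibitor of GCN2, was detected with vehicle only and was at least 1.51-fold lower with ABC294640.

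Of the transcription factors and cofactors of the ATF4 arm, 3 of 7 detected were 2-fold or more higher with ABC294640 and 0 lower. The 3 were ATF3 and TRIB3, which are members, and ATF5. Over all genes, 6.99% were higher and 8.36% lower by as much. The list gave 5 higher and 0 lower under median scaling and 1 and 1 without normalization. ATF4 itself had 8728 units with ABC294640 and 7462 with vehicle, a log2 ratio of 0.16, while a second probe gave 0.78. Since ATF4 is controlled largely through translation, its mRNA does not measure its protein. ATF5, a relative of ATF4 that is regulated alike, had 176.3 units with ABC294640 and 151.4 with vehicle and a log2 ratio of 1.06, past 2-fold in 3 of 7 settings. CEBPB, a partner of ATF4 and CHOP, had 0.35. CEBPG, another partner, had 1818 units with ABC294640 and 3616 with vehicle, a log2 ratio of -0.68. The group's median as reported, 0.56, is the ratio of DDIT3, and 3 of the 8 members are among its 7 detected genes. Over the 7 settings the group's median lay 0.60 to 1.02 above the median of all genes. It is thus no reading apart from the members. NUPR1 was not detected.

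Genes of amino acid supply did not share a direction. In amino acid and one-carbon synthesis, 1 of 12 detected genes was at least 2-fold higher and 1 was at least 2-fold lower. Over all genes, 6.99% were higher and 8.36% lower by as much. The list's median log2 ratio was -0.05. Median scaling gave 2 higher and 0 lower, and no normalization 0 and 1. PYCR1, the last enzyme of proline synthesis, had 1291 units with ABC294640 and 962.3 with vehicle, a log2 ratio of 1.02. This ratio was also past 2-fold in 3 of 7 settings, but a second detected PYCR1 probe gave 0.45. With the detected probes of each gene averaged, 0 genes of the list were at least 2-fold higher. CTH, which makes cysteine from cystathionine, had 0.95, and its other probes gave 0.53 and 0.95. In the serine pathway that PSAT1 belongs to, PHGDH, its first enzyme, had -0.31, and SHMT2, which splits serine in mitochondria, had -0.64. Median scaling turned PHGDH to 0.48 and SHMT2 to 0.01. MTHFD2, the next mitochondrial folate enzyme, had 0.21, and GOT1, the cytosolic aspartate aminotransferase, had 0.18.

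Of the amino acid transporters, 0 of 8 detected genes were at least 2-fold higher and 1 was at least 2-fold lower. Over all genes, 6.99% were higher and 8.36% lower by as much. Median scaling gave 1 transporter each way. SLC38A2 (SNAT2), an importer of neutral amino acids that ATF4 is known to induce, had 619.5 units with ABC294640 and 3129 with vehicle. The log2 ratio of -1.95, a 3.85-fold lower signal with ABC294640, was past 2-fold in all 7 settings. Others of the list were lower by less or slightly higher. SLC38A1 had -0.87, with -0.20 on its other detected probe, and SLC7A1, the arginine and lysine importer, had -0.81. SLC1A5, the glutamine transporter, had 0.51, and SLC3A2, the shared heavy chain of several exchangers, had 0.45. SLC1A4 had -0.12. SLC6A9 was detected with vehicle only, and its signal allows no fold. The cystine importer SLC7A11 was not detected.

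Among the tRNA synthetases and the tRNA exporter listed as ATF4 targets, 0 of 12 detected were at least 2-fold higher and 2 lower. Over all genes, 6.99% were higher and 8.36% lower by as much. In this list 0 were lower under median scaling and 4 without normalization. IARS1, the isoleucine enzyme, had 2878 units with ABC294640 and 7077 with vehicle, a log2 ratio of -1.20 that was -0.50 under median scaling. EPRS1, the glutamate and proline enzyme, had 2046 units with ABC294640 and 4782 with vehicle, right at the threshold, and was past 2-fold in 2 of 7 settings. XPOT, which exports tRNA from the nucleus, had -0.97. WARS1, the tryptophan enzyme, was the highest at 0.56. MARS1 (0.13), LARS1 (0.06) and AARS1 (-0.04) were level. The list's median was -0.26, which lay 0.01 to 0.17 below the median of all genes over the 7 settings. TGATGNAA was present near a start of 7 of the 11 genes of this list with an entry (16 windows). It was near a start of 5 of the 8 amino acid transport genes with an entry (14 windows) and of 2 of the 8 members (13 windows). Of all windows, 3.62% held it, which is a share of windows and not of genes. The tRNA synthetase list was drawn up from genes listed as ATF4 targets, and these differences were not tested.

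**Figure D4:**
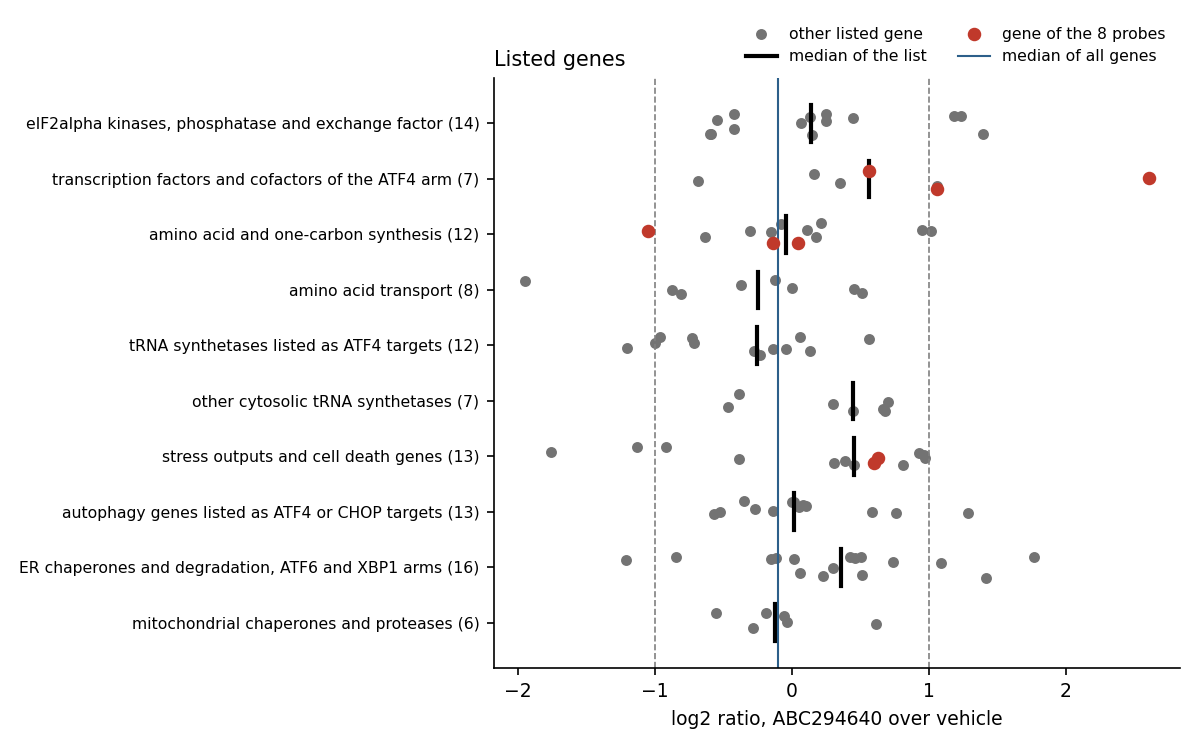
Log2 ratio of ABC294640 over vehicle of each detected gene in 10 lists (number detected in brackets), with genes of the 8 probes in red, black bars for list medians, a blue line for the median of all genes and dashed lines at 2-fold. Points in the transcription factor list reach 2.60, while the transporter list reaches 0.51 and the list of tRNA synthetases listed as ATF4 targets 0.56 at most.

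Of the stress outputs and cell death genes, 0 of 13 detected were at least 2-fold higher and 2 were at least 2-fold lower. Over all genes, 6.99% were higher and 8.36% lower by as much. The list's split turned to 5 higher and 1 lower under median scaling and was 0 and 4 without normalization between the arrays. TNFRSF10B, the death receptor DR5 and a known CHOP target, had 1322 units with ABC294640 and 3647 with vehicle, a log2 ratio of -1.13 that was -0.68 under median scaling, and its second detected probe gave -0.93. VLDLR, a lipoprotein receptor induced by ATF4, had 169.9 units with ABC294640 and 791.0 with vehicle, a log2 ratio of -1.76. ERO1A, the ER oxidase that CHOP induces, had -0.92.

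The highest ratios of the list were over 0, in death genes and in others. PMAIP1 (NOXA), a pro-apoptotic BH3-only protein, had 1903 units with ABC294640 and 1527 with vehicle, a log2 ratio of 0.81, and its second probe gave 1.18. BCL2L11 (BIM), another BH3-only protein, was detected with ABC294640 only and was at least 1.90-fold higher. BBC3 (PUMA), a further BH3-only protein, had 172.9 units with ABC294640 and 346.9 with vehicle, a log2 ratio of -0.39. EIF4EBP1, the translation repressor, had 0.97, and STC2, a secreted glycoprotein, had 0.96, both from signals under 150 units. The list's median of 0.46 lay 0.46 to 0.56 above the median of all genes over the 7 settings, although no gene in it reached 2-fold higher as reported.

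The study's title names autophagic death, and ATF4 and CHOP are known to induce several autophagy genes. Of 13 such genes detected, 1 was at least 2-fold higher and 0 were lower, against 6.99% and 8.36% of all genes. The list's median log2 ratio was 0.01. Without normalization between the arrays 0 were higher and 3 lower. GABARAP, an ATG8 family protein of the autophagosome membrane, had 211.2 units with ABC294640 and 161.1 with vehicle, a log2 ratio of 1.28. It was past 2-fold in 5 of 7 settings, and the lowest of its ratios was 0.52. MAP1LC3B, the usual marker protein of autophagosomes, had 1167 units with ABC294640 and 1171 with vehicle, a normalized log2 ratio of 0.58. ATG10 had 0.76 on one probe and -0.61 on another, so its probes disagree, and ATG12 had 0.10. The initiating kinase ULK1 had -0.57, ATG16L1 had -0.52 and ATG5 had -0.35. Lipidation and turnover of these proteins, by which autophagy is usually judged, were not measured here.

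Markers were read to check the cells. Of 14 endothelial markers, 2 were detected, ENG with 176.0 units with ABC294640 and 181.4 with vehicle, and TEK with 76.7 units with ABC294640 and 82.1 with vehicle. The defining markers PECAM1, CDH5, VWF and KDR were not detected on either array. Signals summed over the 14 markers were 862.4 units with ABC294640 and 908.9 with vehicle. The control mean inferred from the detection p-values was 53.8 units per probe with ABC294640 and 56.1 with vehicle. The array thus gives little sign of the labelled endothelial identity in either group. None of the 4 lymphatic endothelial, 4 epithelial and 5 fibroblast or mural markers was detected on either array. Their summed signals with ABC294640 were 213.0, 215.2 and 259.7 units, against 224.2, 252.8 and 341.6 units with vehicle. Of the 4 leukocyte markers with a probe, CD14 alone was detected, with 171.3 units with ABC294640 and 95.8 with vehicle, and the 4 summed to 361.4 units with ABC294640 and 285.9 with vehicle. The part of these signals in the results above was not tested.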

How the data were processed

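Total RNA was purified on columns with DNase treatment and labelled with biotin for Illumina bead arrays, per the labels' protocols. The authors deposited 1 intensity per probe and array, not normalized, with a detection p-value, made with GenomeStudio per the submitters' processing notes, with settings not given in the sources used here. Of 47323 probes, 5 with a signal and detection p-value of 0 on both arrays were left out. With limma 3.58.1 in R 4.3.3, background was corrected by normexp with controls inferred from the deposited detection p-values. The inferred control mean ± SD was 53.8 ± 7.13 for ABC294640 and 56.1 ± 8.44 for vehicle, and no control probe was read itself. An offset of 16 was added, and log2 values were quantile-normalized, which forces both arrays to 1 distribution. Detection meant a p-value under 0.01, which 15957 probes met with ABC294640 and 17477 with vehicle. A probe detected on 1 array only has a bound, taken against the higher of its own value and the lowest detected value on the dim array. List medians use measured ratios.

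The deposited series matrix intensities served as an alternative. Their medians were 62.2 on both arrays, their ranks followed the signals (Spearman 0.999995 for ABC294640 and 0.999996 for vehicle over probes), their scale was linear, and how they were normalized is not stated. Probes were named from the platform annotation (30113 with 1 gene, 8 with several, 17198 of those used without an entry), with symbols updated through gene identifiers. Named were all members, all detected genes of the first 2 lists, and the 4 highest and 3 lowest of each other list. BBC3 was named besides these and is not in the counts of named genes. Members and lists were chosen with earlier results of these data known. With 1 array a group no p-value was computed, and the number of arrays limits the precision.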

Additional observations from a re-analysis of the deposited data

How the results depend on the processing

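Member ratios were recomputed 48 times, and 44 moved by less than the spread (scaled median absolute deviation) of the 1000 probes nearest in mean signal, which is no replicate error. The others were TRIB3 (0.40), SESN2 (-0.20) and PCK2 (-0.70) without normalization between the arrays and PSAT1 (-0.44) under median scaling. As reported, 2 members were at least 2-fold higher and 1 lower. Median scaling gave 3 higher, adding DDIT4, and 0 lower, and cyclic loess 0 lower. Without normalization and with the series matrix values ATF3 alone was at least 2-fold higher, so 1 each. A 1.5-fold threshold gave 4 higher, and a 3-fold one 1 higher and 0 lower.

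All detected probes past 2-fold numbered 1346 higher and 1269 lower. Median scaling gave 2059 higher, no normalization 548 and 5094, the series matrix values 895 and 697, a 1.5-fold threshold 3139 and 3380, and a 3-fold one 533 and 221. Lower probes came to 734 without background correction and 777 with an offset of 50. Pathway genes numbered 11 higher and 7 lower as reported, 22 and 3 under median scaling, 3 and 21 without normalization, 24 and 18 at 1.5-fold and 2 and 2 at 3-fold. The series matrix values gave 5 higher. Of 200 recomputed counts for single lists, 146 stayed within 1.5 times, and the counts are small. The share of higher calls thus depends on the scaling, whose cause was not tested. Signal over background limits the ratios of dim probes. No paired analysis was possible because there was a single array of each group.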

Other observations

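Some ER chaperones, a group that the ATF6 and XBP1 arms of the unfolded protein response control, were among the listed genes with the largest ratios. Of 16 detected genes, 3 were higher by 2-fold or more with ABC294640 and 1 was lower by as much, against 6.99% and 8.36% of all genes. Without normalization between the arrays 1 was higher and 2 were lower. SDF2L1, a partner of the chaperone BiP, had 2118 units with ABC294640 and 921.0 with vehicle, a log2 ratio of 1.76. DNAJB9, a BiP cofactor, had 1939 units with ABC294640 and 1064 with vehicle, a log2 ratio of 1.42 that was past 2-fold in 6 of 7 settings. HSPA5, BiP itself, had 1223 units with ABC294640 and 887.1 with vehicle, a log2 ratio of 1.09 that was past 2-fold in 5 of 7 settings. HYOU1, an ER chaperone of the HSP70 kind, had 0.74, and DNAJB11 had -0.15. EDEM1, which sends misfolded glycoproteins to degradation, had 268.6 units with ABC294640 and 928.4 with vehicle, a log2 ratio of -1.21, and SEL1L, part of the same degradation route, had -0.84. The list's median lay 0.42 to 0.50 above the median of all genes over 7 settings. The ER stress element was present near a start of 6 of the 18 genes (21 windows), and in 0.0769% of all windows. A count of genes and a share of windows are unlike measures. The genes were listed because they belong to the ATF6 and XBP1 arms, so the count is no independent result. HSPA5 held the element, and the other genes with it had log2 ratios between -0.12 and 0.51. SDF2L1 and DNAJB9 held no match. A link between the element and the ratios was not tested.

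Cytosolic tRNA synthetases outside the list of ATF4 targets had a median log2 ratio of 0.45 over 7 detected genes, against -0.26 over the 12 in that list, a difference that was not tested. KARS1 (0.70), VARS1 (0.68) and HARS1 (0.67) were the highest, followed by FARSA (0.45) and FARSB (0.30), and QARS1 (-0.39) and RARS1 (-0.47) were the lowest. No gene of this list reached 2-fold either way as reported, against 6.99% higher and 8.36% lower over all genes. Of 6 mitochondrial chaperones and proteases, which mark mitochondrial protein stress, 0 were past 2-fold in either direction in any of the 7 settings. CLPP had 0.61, LONP1 -0.03, HSPD1 -0.06, HSPE1 -0.19, HSPA9 -0.29 and DNAJA3 -0.55. The other detected probes of HSPD1 gave 0.41 and 0.52.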
